A study of Mus musculus with 2 samples.

Results

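The Sox9 domain was taken as the stretch of mouse chromosome 11 between the end of Kcnj2 and the lowest coordinate of Slc39a11. These are the protein-coding genes on either side of Sox9 in GENCODE mouse release M21 on mm10. The domain spanned chr11:111076822-113244852, or 2168031 bp. ATAC-seq marks accessible DNA by the places where a transposase can cut it and add adapters. It was carried out on cartilage of the proximal and distal femur of FVB mouse embryos (strain FVBNJ) at E15.5, with no genotype or treatment groups, in 2 biological replicates per femur end. Each replicate pooled the femurs of a litter of 8 animals on average, and the tissue held all chondrocyte zones and the perichondrium, so a region with fewer open cells and one that was less open in each cell could not be told apart. The deposited lists gave the positions of peaks that both replicates of an end reproduced, at an irreproducible discovery rate under 0.05, without heights or scores. The domain held 21 of the 28257 proximal femur peaks and 17 of the 27958 distal femur peaks. Overlapping peaks were merged, which gave 24 of the 32388 regions of the series, numbered here 1 to 24 from the Kcnj2 side. Each end had 1 list, so the values below carry no replicate error and no test was run between the ends. The depth behind a peak is unknown from these lists.

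Sox9 encodes a transcription factor with a DNA-binding HMG box that is required for cells to become and remain chondrocytes. With Sox5 and Sox6 it switches on genes of the cartilage matrix, such as Col2a1 and Acan. The gene sits in a large gene desert, and loss of far regulatory DNA around the human gene is known from campomelic dysplasia and from isolated cleft palate with a small jaw, which is why distant elements of this locus are of interest in skeletal tissue.

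The regions differed in which femur end they were called in and in whether they held a binding motif of AP-1, the family of Fos and Jun dimers that acts in many cell types, chondrocytes among them. Windows of 200 bp around the centres of 8 regions are given below from the mm10 reference sequence, which comes from C57BL/6J and not from FVB mice, on the plus strand, 5′ to 3′. Capitals mark matches to TGANTCA (AP-1), ACCACA or its reverse complement (RUNX) and AACAAT or ACAAAG or their reverse complements (SOX single). These windows are examples, and 10 of the 24 windows of the domain had no AP-1 match. Of the regions called in 1 end only, regions 11, 15 and 20 had none and are not shown. Regions 7, 17 and 18 were called in both femur ends and each held a pair of AP-1 matches.
region 7 (chr11:112470524-112470723): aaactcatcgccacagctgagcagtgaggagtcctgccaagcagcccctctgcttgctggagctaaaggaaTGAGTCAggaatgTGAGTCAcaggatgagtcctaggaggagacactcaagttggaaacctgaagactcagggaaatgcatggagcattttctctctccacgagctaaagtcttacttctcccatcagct
region 17 (chr11:113027096-113027295): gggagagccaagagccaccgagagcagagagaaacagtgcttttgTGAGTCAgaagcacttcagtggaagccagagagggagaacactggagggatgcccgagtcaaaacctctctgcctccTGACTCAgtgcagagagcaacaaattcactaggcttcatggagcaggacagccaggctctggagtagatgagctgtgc
region 18 (chr11:113061131-113061330): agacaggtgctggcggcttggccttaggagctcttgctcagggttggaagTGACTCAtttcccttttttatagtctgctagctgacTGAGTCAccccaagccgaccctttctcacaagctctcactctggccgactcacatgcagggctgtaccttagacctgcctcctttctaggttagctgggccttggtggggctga
Regions 12 and 19 were called in the proximal femur only. Region 12 was the region nearest to Sox9 other than the one at its start, and region 19 had an ACCACA match separated by 1 base from its AP-1 match.
region 12 (chr11:112758146-112758345): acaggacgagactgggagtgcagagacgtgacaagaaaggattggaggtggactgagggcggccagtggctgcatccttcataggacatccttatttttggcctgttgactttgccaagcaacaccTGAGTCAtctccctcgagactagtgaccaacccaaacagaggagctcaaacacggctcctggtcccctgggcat
region 19 (chr11:113063298-113063497): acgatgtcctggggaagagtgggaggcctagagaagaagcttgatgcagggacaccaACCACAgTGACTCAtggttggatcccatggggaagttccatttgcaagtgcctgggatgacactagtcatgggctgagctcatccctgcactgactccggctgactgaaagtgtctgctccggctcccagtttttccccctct
Regions 4 and 5 were called in the distal femur only.
region 4 (chr11:112024487-112024686): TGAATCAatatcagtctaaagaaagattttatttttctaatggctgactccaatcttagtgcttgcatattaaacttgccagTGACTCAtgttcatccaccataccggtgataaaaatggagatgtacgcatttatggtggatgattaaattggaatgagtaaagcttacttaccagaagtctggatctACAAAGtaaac
region 5 (chr11:112176044-112176243): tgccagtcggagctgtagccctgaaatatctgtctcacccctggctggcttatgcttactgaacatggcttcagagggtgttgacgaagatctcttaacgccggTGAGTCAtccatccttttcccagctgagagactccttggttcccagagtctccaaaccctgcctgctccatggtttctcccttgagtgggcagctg
Region 23 covered the start of a long non-coding RNA gene, was called in both ends, and had no AP-1 match but 2 RUNX matches.
region 23 (chr11:113201614-113201813): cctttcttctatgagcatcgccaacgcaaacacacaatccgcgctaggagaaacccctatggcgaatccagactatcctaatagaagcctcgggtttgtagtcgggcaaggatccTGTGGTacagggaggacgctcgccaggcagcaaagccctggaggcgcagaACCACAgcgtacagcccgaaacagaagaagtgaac

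Region 13 lay over the start of Sox9 and was called in both ends. Sox9 (ENSMUSG00000000567.5) lies on the plus strand at chr11:112782224-112787760. The proximal peak at its start ran from 112781944 to 112782726 and was 783 bp wide, and the distal peak ran from 112781927 to 112782607 and was 681 bp wide. The starts of these peaks differed by 17 bp and their ends by 119 bp. The merged region reached 297 bp before the start site and 502 bp past it, over annotated exon sequence of Sox9. It also covered the start of BC006965, an annotated processed transcript on the opposite strand whose start lies 248 bp from that of Sox9. The 12189 regions of the series that covered a start site had a median width of 980 bp, and 26.9% of them were narrower than the 800 bp of region 13. The GC content of region 13 was 64.4%, the highest in the domain, and its ratio of observed to expected CpG was 0.792. Region 23, which covered the start of 2610035D17Rik, had a ratio of 0.858, whereas the remaining regions lay between 0.178 and 0.385. Regions 13 and 23 were the 2 regions of the domain within 1 kb of an annotated start site.

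**Figure D1:**
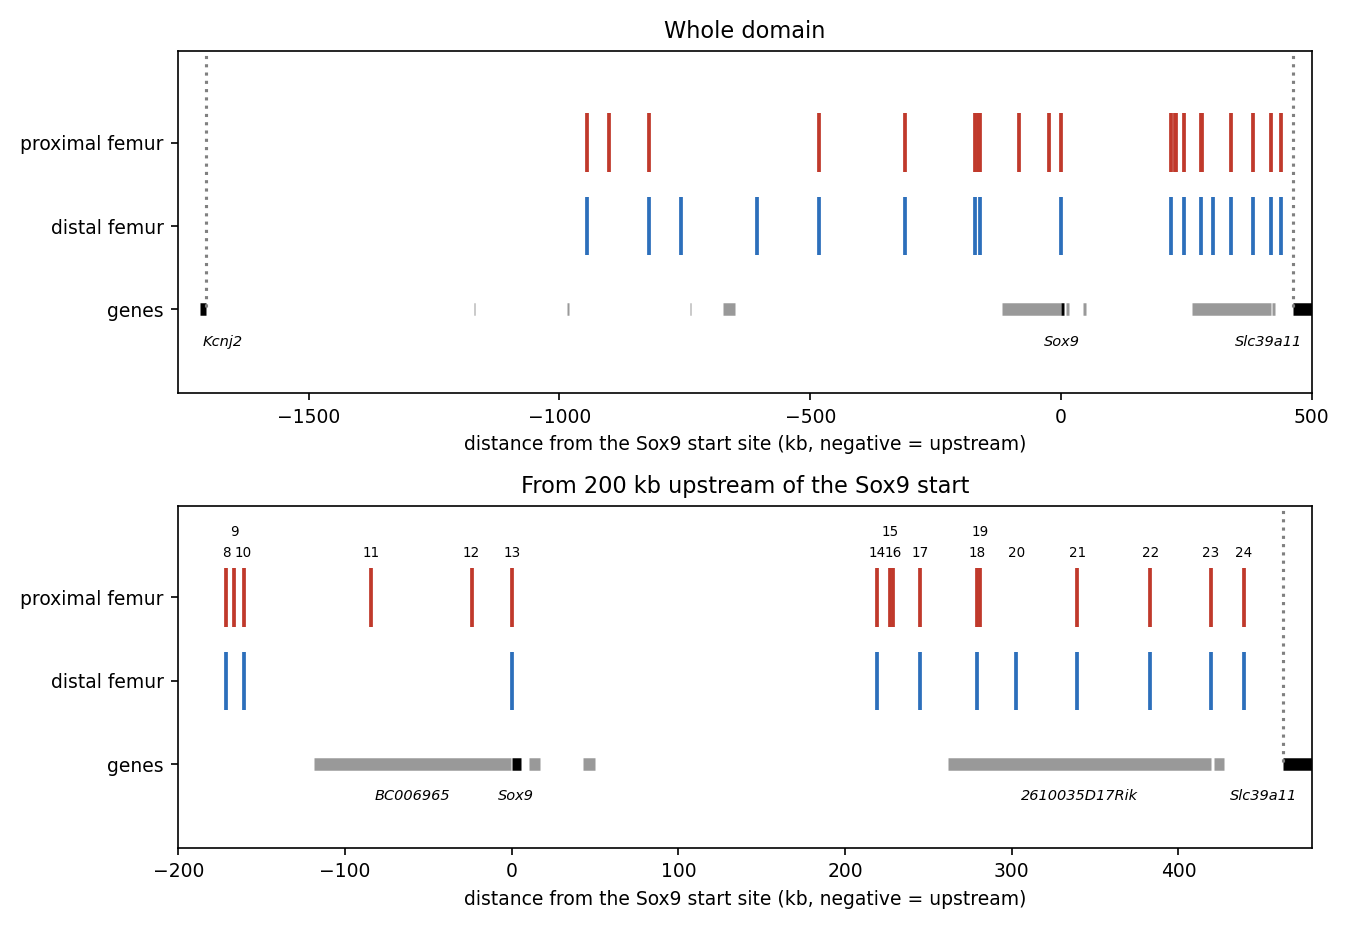
Peaks of the proximal femur (red) and distal femur (blue) along the Sox9 domain, by the distance of the merged region's centre from the Sox9 start site in kb, with protein-coding genes in black and other annotated genes in grey, and with the limits of the domain dotted. The upper panel shows the whole domain and the lower panel the stretch from 200 kb upstream with region numbers, and no peak lies in the first 759 kb from the left limit or in the 218 kb that follow region 13.

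The regions were spread unevenly around the gene. Upstream of the Sox9 start lay 12 regions in 1.71 Mb, or 7.04 per Mb, and downstream of it lay 11 regions in 0.463 Mb, or 23.8 per Mb. The downstream side was thus the denser. The whole domain had 11.1 regions per Mb, beside 14.0 on chromosome 11 and 13.2 over all autosomes. Counting only regions over 1 kb from a start site, which 22 of the 24 regions were, chromosome 11 had 6.29 per Mb and the series 7.56 per Mb. By this count the domain, with 22 regions in 2.17 Mb, was denser than either. The regions covered 16936 bp, or 0.781% of the domain, beside 1.02% of the autosomes. The median distance to the Sox9 start, from the nearest edge, was 292 kb over all 24 regions, 397 kb over those upstream and 281 kb over those downstream.

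Long stretches held no peak of either end. The 758970 bp that follow Kcnj2 had none, which left region 1, at 946 kb upstream, as the farthest from Sox9. The next longest stretch without a peak, 218233 bp, ran from region 13 to region 14 and held most of the Sox9 gene and the sequence downstream of it. Stretches of 171 kb between regions 6 and 7, of 151126 bp between regions 4 and 5 and of 139808 bp between regions 7 and 8 followed. At the other extreme, regions 15 and 16 were 1063 bp apart and regions 18 and 19 were 1562 bp apart. The 100 kb window with the most regions downstream held regions 14 to 20, which are 7 regions in 84.4 kb between 219 and 303 kb from Sox9, and 3 of these were called in both ends. Upstream, regions 8 to 11 formed the densest window, with 4 regions in 87.9 kb between 171 and 83.7 kb from Sox9, of which 2 were called in both ends. Over the series 62.0% of regions over 1 kb from a start site were called in both ends, and these counts are too small to set either window apart.

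By distance, the first 100 kb upstream held 2 regions, both called in the proximal femur only, and the first 100 kb downstream held 0 besides region 13. Of all regions over 1 kb from a start site, 20.9% were called in the proximal femur only. Between 100 and 250 kb there were 3 regions upstream and 4 downstream. Between 250 and 500 kb there were 2 upstream and 7 downstream, and the 5 others lay between 500 and 1000 kb upstream. Distal femur peaks were therefore absent between region 10, at 160 kb upstream, and region 13.

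Most regions lay outside genes. Of the 24 regions, 15 overlapped no annotated gene of any type. Regions 11 and 12 lay in introns of BC006965, which reaches from 112663927 to 112781976 on the minus strand. The long non-coding RNA gene 2610035D17Rik, on the minus strand from 113043895 to 113201838, held 6 regions. Its introns held regions 18 to 22, and its start lay in region 23. 4 of these 6 regions were called in both ends, region 19 in the proximal femur only and region 20 in the distal femur only. Over the series 73.0% of all regions were called in both ends. The other annotated genes inside the domain, which are non-coding genes and pseudogenes, were touched by no region.

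The genes at the limits had peaks of their own outside the domain. Kcnj2 encodes an inward rectifier potassium channel, and a region called in both ends (chr11:111065637-111066675) covered its start, 10147 bp from the left limit. Slc39a11 encodes a zinc transporter and lies on the minus strand, so its lowest coordinate, which sets the right limit, is the end of the gene. The first region past that limit (chr11:113254836-113255370) was called in the distal femur only and lay in a Slc39a11 intron, 9984 bp from the limit. With the right limit moved to the start site of Slc39a11 at 113650079, the count rose from 24 to 29 regions, with 23 proximal and 22 distal peaks.

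Of the 24 regions, 14 were called in both ends, a share of 58.3% (95% Wilson interval 38.8% to 75.5%). This was beside a background of 73.0% over all regions of the series. Over 1 kb from a start site the share was 54.5% in the domain (12 of 22, interval 34.7% to 73.1%), beside 62.0% of such regions in the series. Intervals here cover counting error only. The proximal femur alone had 7 regions (29.2%, interval 14.9% to 49.2%), beside 14.1% of all regions, and the distal femur alone had 3 (12.5%, interval 4.34% to 31.0%), beside 12.9%. Together 10 regions (41.7%, interval 24.5% to 61.2%) were called in 1 end only, beside 27.0% of all regions. Among the 22 regions over 1 kb from a start site, the 10 made up 45.5% (interval 26.9% to 65.3%), beside 38.0% of all such regions. The background lay inside the interval in each of these comparisons except for the proximal femur alone, where 14.1% was just under the lower bound of 14.9%. Over 1 kb from a start site that class made up 31.8% in the domain (7 of 22, interval 16.4% to 52.7%), and the background of 20.9% lay inside the interval. The distal femur alone made up 13.6% there (3 of 22), beside 17.1%. Upstream, 6 regions were called in both ends, 4 in the proximal femur only and 2 in the distal femur only. Downstream the numbers were 7, 3 and 1.

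The 7 regions called in the proximal femur only lay on both sides of the gene. Region 2 (chr11:111880115-111880557, 443 bp) was the farthest, at 902 kb upstream, and its nearest distal peak was 43454 bp away. Region 9 (chr11:112615612-112616092, 481 bp) lay between the shared regions 8 and 10, at 166 kb upstream and 4054 bp from a distal peak. Region 11 (chr11:112697644-112698491), in an intron of BC006965 at 83.7 kb upstream, was the widest of the 7 with 848 bp, and no distal peak lay within 75656 bp of it. Region 12 (chr11:112758027-112758465, 439 bp) lay in another stretch of intron of BC006965, 23.8 kb upstream of Sox9, with the distal peak of region 13 at 23461 bp. The remaining members of this class were downstream. Regions 15 (chr11:113009177-113009775, 599 bp) and 16 (chr11:113010839-113011301, 463 bp) lay side by side at 227 and 229 kb, and their nearest distal peaks were 7727 and 9389 bp away. Region 19 (chr11:113063055-113063741, 687 bp), at 281 kb in an intron of 2610035D17Rik, was the closest of the 7 to a distal peak, with 1562 bp to that of region 18.

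Region 4 (chr11:112024310-112024864, 555 bp), at 757 kb upstream, and region 5 (chr11:112175991-112176296, 306 bp), at 606 kb upstream, were called in the distal femur only. Region 5 had the narrowest peak of the domain and lay 122443 bp from the nearest proximal peak, and region 4 lay 62097 bp from one. Both lay outside annotated genes and next to each other along the chromosome. Region 20 (chr11:113084769-113085354, 586 bp) lay at 303 kb downstream in an intron of 2610035D17Rik, 21027 bp from the nearest proximal peak. None of the 10 regions became shared when peaks up to 500 bp apart were counted as shared, since the smallest distance was 1562 bp. A region missing from a list may have had signal under the calling threshold, and signal was not analysed here.

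**Figure D2:**
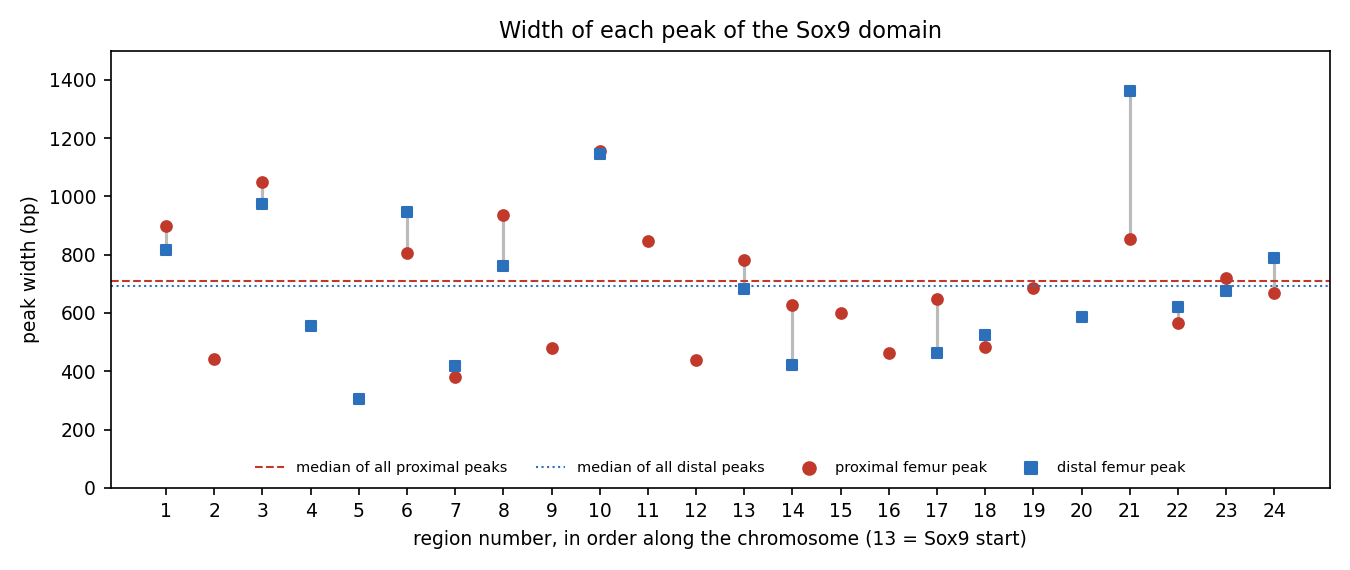
Width in bp of each proximal femur peak (red circles) and distal femur peak (blue squares) of the 24 regions of the Sox9 domain, in order along the chromosome, with a grey line joining the peaks of a shared region and lines at the median of all peaks of each list (711 bp and 691 bp). Peaks without a partner lie below the medians in 9 of 10 regions, region 11 being the exception, and region 21 has the largest difference between the ends.

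Peaks called in 1 end only were narrower than the shared ones. The 7 proximal peaks of this kind had a median width of 481 bp (range 439 to 848 bp), beside 751 bp for the 14 shared proximal peaks. The 3 distal peaks of this kind had a median of 555 bp (range 306 to 586 bp), beside 721 bp for the 14 shared distal peaks. The same order held over the series, where the medians were 510 and 760 bp in the proximal list and 497 and 735 bp in the distal list. Over 1 kb from a start site, where 22 of the 24 regions lay, they were 504 and 626 bp in the proximal list. In the distal list they were 473 and 589 bp. The medians of the shared peaks of the domain were higher than these, but they include regions 13 and 23 at start sites. The sets are therefore unlike. In the domain, 9 of the 10 were narrower than the median of their list. All proximal peaks of the domain had a median of 670 bp (range 382 to 1157 bp), beside 711 bp in the whole list. All distal peaks of the domain had a median of 674 bp (range 306 to 1361 bp), beside 691 bp in the whole list. The whole lists include the peaks at start sites, so these last values do not compare like with like.

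The 5 widest regions were all called in both ends, beside 73.0% of all regions and 62.0% of those over 1 kb from a start site. A merged width spans both peaks of a shared region, and shared peaks were wider over the series, so this ranking favours shared regions. Region 21 (chr11:113120872-113122232, 1361 bp, 339 kb downstream) was the widest, followed by region 10 (chr11:112620843-112622030, 1188 bp, 160 kb upstream). Region 3 (chr11:111961164-111962214, 1051 bp, 820 kb upstream) came next, followed by region 6 (chr11:112298639-112299585, 947 bp, 483 kb upstream) and region 8 (chr11:112610641-112611577, 937 bp, 171 kb upstream). Except for region 21, which lay in an intron of 2610035D17Rik, these lay outside annotated genes. Region 1 (chr11:111835792-111836689, 898 bp), the farthest upstream, and region 24 (chr11:113221208-113221997, 790 bp, 439 kb), the farthest downstream, were also shared and also outside genes.

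The remaining shared regions were narrower. Region 7 (chr11:112470416-112470832), alone in its stretch at 311 kb upstream, was the narrowest region called in both ends, with 382 bp in the proximal and 417 bp in the distal femur. Region 18 (chr11:113060969-113061492), at 279 kb downstream, had 483 and 524 bp, and region 22 (chr11:113165046-113165665), at 383 kb, had 567 and 620 bp. These 3 regions were slightly wider in the distal list. Region 23 (chr11:113201355-113202073), at 419 kb, had 719 bp in the proximal and 674 bp in the distal femur.

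Within shared regions the ends gave similar outlines. The ratio of proximal to distal width had a median of 1.04 (range 0.628 to 1.50) over the 14 regions, beside 1.02 over all 23635 shared regions, and 8 of the 14 were wider in the proximal femur and 6 narrower. Overlap of the peaks covered a median of 88.0% of the merged width (range 62.8% to 93.8%), beside 88.7% in the series. The 28 pairs of edges differed by a median of 36 bp. Region 10 was nearly the same in both ends, with 1157 bp in the proximal and 1145 bp in the distal femur. Regions 1, 3 and 8 were wider in the proximal femur, with 898, 1049 and 937 bp beside 816, 975 and 761 bp in the distal femur. Regions 6 and 24 were wider in the distal femur, with 947 and 788 bp beside 807 and 670 bp in the proximal femur.

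A few shared regions differed more. Region 21 had 855 bp in the proximal and 1361 bp in the distal femur, where its start lay 361 bp farther left and its end 145 bp farther right. In the opposite direction, region 14 (chr11:113000960-113001587), the nearest to Sox9 on the downstream side at 219 kb, had 628 bp in the proximal and 420 bp in the distal femur. Region 17 (chr11:113026872-113027520), at 245 kb, had 649 bp in the proximal and 462 bp in the distal femur. Regions 14 to 17 were thus 2 proximal-only regions flanked by 2 shared regions that were wider in the proximal list. Whether these widths exceed the spread between replicates was not tested, since each list combines its replicates.

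The sequence of the regions differed from the surrounding DNA. GC content had a median of 51.4% over the 24 regions (range 38.4% to 64.4%), beside 42.1% for the whole domain. Over 1 kb from a start site the median was 51.2% in the domain and 47.2% in the series. Repeat-masked bases made up 25.6% of the domain, and a median of 6.33% of the regions over 1 kb from a start site, beside 9.13% for such regions of the series. There were 8 regions without a repeat-masked base. The median was 11.4% for the 14 shared regions and 0% for the 10 called in 1 end only, whose highest value was 10.8%. No such split was made over the series, so whether this difference is particular to the domain is unknown.

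Matches to 6 motifs were counted on both strands in 200 bp around region centres, a position being counted once where both strands match. AP-1 (TGANTCA) had a match in 14 of 24 regions, or 58.3% (95% Wilson interval 38.8% to 75.5%), beside 23.9% of all regions. All 14 were over 1 kb from a start site, where the share was 63.6% (14 of 22, interval 43.0% to 80.3%), beside 36.6% of such regions in the series. In both sets the share of the series lay below the interval, which covers counting error only. The motifs were chosen with earlier results of these data known, so this is not a test. Shared regions over 1 kb from a start site had a match in 7 of 12 (58.3%), beside 36.5% in the series, and regions called in 1 end only had one in 7 of 10 (70%), beside 36.7%. The counts were 5 of 7 for the proximal femur only, beside 42.3% in the series, and 2 of 3 for the distal femur only, beside 30.0%. AP-1 matches thus occurred in every class of the domain. By position, 9 of the 12 upstream regions and 5 of the 11 downstream regions had a match, and regions 20 to 24 had none.

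Regions 4, 7, 14, 17 and 18 had 2 AP-1 matches in the window and 9 other regions had 1. The starts of the matches were 13 bp apart in region 7, 36 bp in region 18, 51 bp in region 14, 77 bp in region 17 and 82 bp in region 4. Among these 5 regions, region 4 was the only one not called in both ends, beside 62.0% called in both ends among regions of the series over 1 kb from a start site. In whole regions there were 24 AP-1 matches, 18 with C or G and 6 with A or T as the middle base. Of these matches 19 (79.2%) lay within 100 bp of the region centre, beside 51.5% in the series, and their median distance from the centre was 53 bp, beside 96 bp. Over 1 kb from a start site, 19 of 23 matches in the domain (82.6%) lay within 100 bp of the centre, beside 56.8% in the series, with medians of 52 bp and 84 bp. With only C or G allowed in the middle, 12 of 24 regions (50%) had a match, beside 19.9% of all regions. Over 1 kb from a start site the share was 54.5% (12 of 22), beside 30.4% of such regions in the series.

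**Figure D3:**
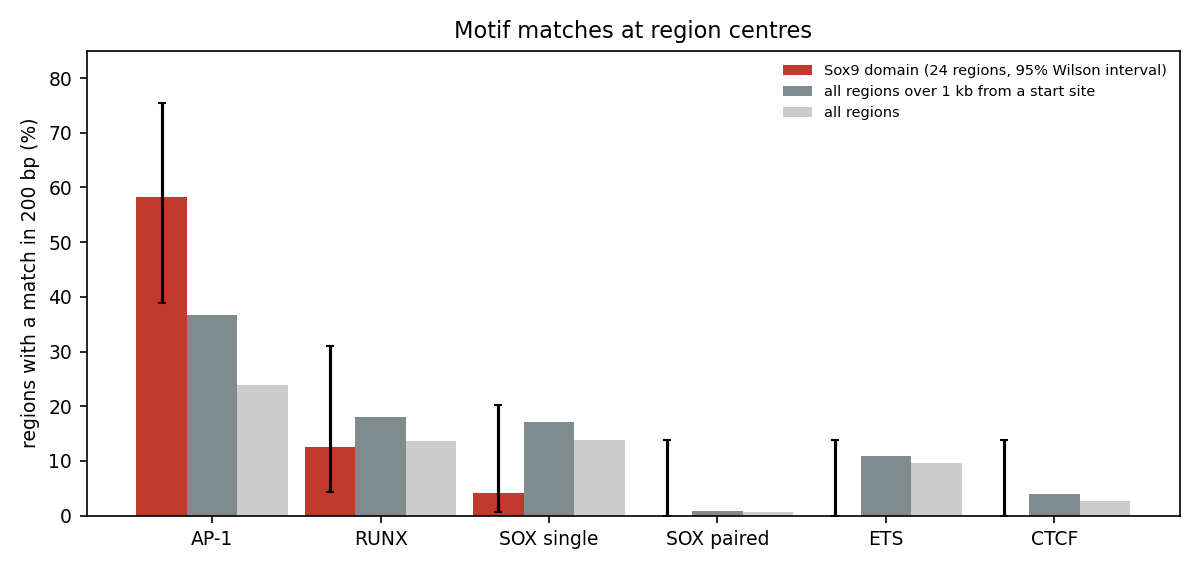
Share in percent of regions with a motif match in 200 bp around the centre, for the 24 regions of the Sox9 domain (red, with 95% Wilson intervals), for all regions of the series over 1 kb from a start site (dark grey) and for all regions (light grey). AP-1 is at 58.3% in the domain, above both grey bars and with an interval that lies above them. The intervals of RUNX, SOX single, SOX paired, ETS and CTCF include the grey bars. All intervals cover counting error only.

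The other motifs had few matches. RUNX (ACCACA), bound by the Runx factors that act in chondrocyte maturation, was matched in regions 19, 20 and 23 (12.5%), beside 13.7% of all regions. In region 23 both matches lay in the window, on opposite strands. SOX single (AACAAT or ACAAAG), the core bound by an HMG box, was matched in region 4 only (4.17%, interval 0.739% to 20.2%), beside 13.8%. SOX paired (ACAA, 5 to 7 bases, TTGT), the arrangement read by SOX dimers, was matched in 0 of 24 regions, beside 0.630%. ETS (CAGGAAG) had 0 matches, beside 9.57%, and the core consensus of CTCF, a protein that anchors chromatin loops, had 0, beside 2.60%. A count of 0 in 24 allows a share of up to 13.8% (upper Wilson bound), which includes each of these backgrounds. In whole regions SOX single was matched in 8 regions and RUNX in 10, beside 47.5% and 38.5% of all regions of the series. A match is a run of letters and not a bound site.

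The domain was compared with the intervals of other protein-coding genes, each taken between its flanking protein-coding genes. Intervals of neighbouring genes overlap. There were 676 intervals of 1 Mb or more. The Sox9 interval, with 11.1 regions per Mb, was above the median of 6.23, and 132 intervals were denser. By number, 42 intervals held more than 24 regions, with a median of 12, and by length 187 were longer. The share of regions called in both ends had a median of 64.5% over the 418 of these intervals with at least 10 regions, and 297 had a higher share than the 58.3% of Sox9.

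**Figure D4:**
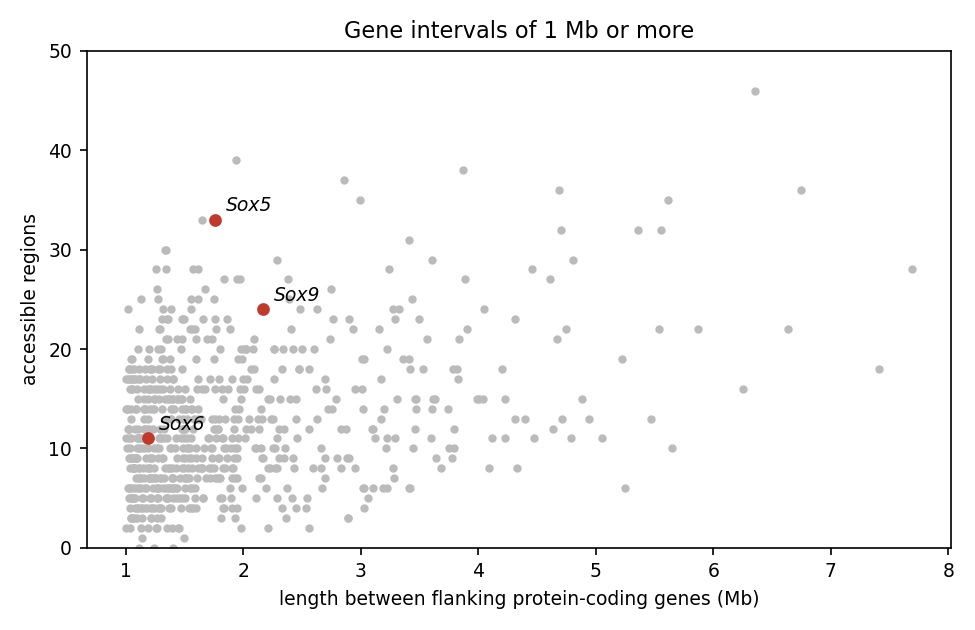
Number of accessible regions, merged from both lists, against interval length in Mb for the 676 gene intervals of 1 Mb or more (grey points), with Sox9, Sox5 and Sox6 in red. Sox9 lies at 2.17 Mb and 24 regions, Sox5 at 1.76 Mb and 33 regions, and Sox6 at 1.19 Mb and 11 regions.

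Sox5 and Sox6, the partners of Sox9 at cartilage genes, also lay in large intervals. Sox5 had 33 regions in 1.76 Mb, or 18.7 per Mb, of which 22 were called in both ends. Sox6 had 11 regions in 1.19 Mb, or 9.25 per Mb, of which 7 were called in both ends. Over the series 73.0% of all regions, and 62.0% of those over 1 kb from a start site, were called in both ends. Unlike Sox9, neither had a region over the first base of the annotated gene. The nearest regions lay 52547 bp from that base for Sox5 and 664 bp from it for Sox6. Starts of other transcripts of these genes were not examined. Sox8 and Sox10, which belong to the same SOX subgroup as Sox9, had 2 regions each. Those of Sox8 were shared and 1 of them covered its start, whereas those of Sox10, known from neural crest and glia, were called in the distal femur only. With Sox10 taken with 50 kb on each side instead, 4 regions were counted, of which 3 were called in both ends and 1 in the distal femur only, beside 73.0% and 12.9% of all regions. Over these 4 SOX genes, 17 of 48 regions (35.4%) were called in 1 end only, 9 in the proximal and 8 in the distal femur, beside 27.0% of all regions and 38.0% of those over 1 kb from a start site.

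Among 8 genes of the cartilage matrix, 43 regions were found, of which 30 were shared, 5 called in the proximal and 8 in the distal femur only, so that 30.2% were called in 1 end, beside the same 27.0% and 38.0%. Regions called in both ends covered the starts of Col2a1 (the main cartilage collagen), Acan (the proteoglycan aggrecan), Col9a1 (a chain of collagen IX) and Hapln1 (the link protein that holds aggrecan to hyaluronan). These genes, together with Sox9, Col11a2 and Matn1, were taken as markers of chondrocytes, the cell type given in the labels. Neither Col11a2 nor Matn1 had a region called in both ends over its start. The start of Col11a2 (a chain of collagen XI) was covered in the distal femur only. The other 3 genes had no region over their start. The nearest region was 531 bp away for Cnmd (chondromodulin), 884 bp for Comp (a matrix protein) and 37552 bp for Matn1 (matrilin), whose interval held 0 regions. Acan and Hapln1 had 11 regions each, Col9a1 had 10 and Col2a1 had 2, in intervals of 195, 332, 162 and 68.5 kb. Sox9 had more regions than these genes but, in its longer interval, fewer per Mb, with 11.1 beside 56.5 for Acan, 33.1 for Hapln1, 61.9 for Col9a1 and 29.2 for Col2a1.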

How the data were processed

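ATAC-seq libraries were made from 50000 cells of collagenase-digested cartilage. Reads were aligned by the authors to mm10 (Bowtie2 2.2.8), duplicates were removed and peaks were called with MACS2 2.1.1, as the submitters' processing notes give the versions. Peaks reproducible between the 2 replicates of an end at an irreproducible discovery rate under 0.05 were deposited as chromosome, start and end, 1 list per femur end. The starts were taken to count from 0, and positions are given counting from 1. Read depth was not analysed here, and its effect on the calls is unknown.

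Peaks overlapping by at least 1 bp were merged into regions with Python 3.11.15, NumPy 2.4.6 and pysam 0.24.0. Sequence came from the GRCm38 assembly (mm10) with samtools 1.23.1 and genes from GENCODE mouse release M21. Distances run from the Sox9 start to the nearest region edge. Start sites were those of all annotated transcripts, with 1 kb as the limit. The start of a named gene was the first base of the annotated gene. Intervals are 95% Wilson intervals (SciPy 1.17.1). Overlap and motif counts were tested on simulated data. Genes named were those at the limits of the domain, those touched by a region, 4 SOX genes and 8 cartilage genes. Regions described in full were those at Sox9, nearest to it, farthest from it, widest, in the densest 100 kb windows or called in 1 end only. The domain, gene lists and motifs were chosen with earlier results of these data known, and so support nothing by their choice. Alternatives changed the limits, widths, overlap, window or interval length.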

Additional observations from a re-analysis of the deposited data

How the results depend on the processing

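Leaving out every peak narrower than its list's median width left 10 regions, 9 proximal peaks and 7 distal peaks in the Sox9 domain, or 4.61 regions per Mb. Among intervals of 500 kb or more, 65.4% had a lower density than Sox9, and among those of 1 Mb or more 80.3%. With windows of 500 bp and with whole regions, the numbers of regions with a match were 8 and 10 for RUNX, 7 and 8 for SOX single, and 1 and 2 for ETS. The shares of all regions rose too, to 28.9% and 38.5%, 34.6% and 47.5%, and 21.1% and 28.9%. The 4 SOX genes had 28 regions when each gene was taken with 50 kb on each side.

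The share of regions called in both ends stayed between 55.2% and 60% under a reciprocal overlap of 50%, a tolerance of 500 bp, the width limit and the right limit at the Slc39a11 start. AP-1 had a match in 15 of the 24 regions with either longer window. The share of all regions rose from 23.9% to 35.4% with 500 bp and 40.9% with whole regions. The contrast with all regions was thus smaller. Most regions of the domain lay over 1 kb from a start site, where 36.6% of the series had a match in 200 bp. That share was not counted for the longer windows, so whether the contrast with such regions held is unknown. With only C or G in the middle, an alternative chosen after seeing the data, 12 of the 24 regions had an AP-1 match. Without depth, heights or replicate lists, calls in 1 end only cannot be told from signal near the threshold. No paired analysis was possible because each list combines the replicates of its femur end, and no replicate could be left out for the same reason.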
